A study of Bombus lucorum with 81 samples.

Results

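The 81 workers of the white-tailed bumblebee Bombus lucorum were divided by 4 transcripts of the kind that a bee's digestive tract makes. The 4 genes are LOC100642795, LOC100642915 and LOC100643150, all named peritrophin-1, and LOC100648122, named chymotrypsin-1. For each bee a score was taken as the mean over the 4 genes of log2(CPM + 1), where CPM is the count of a gene scaled to the total count of its library, after each gene had been centred on its mean over all bees. The 44 bees with a score above 0 are called high bees and the 37 bees with a score below 0 are called low bees. High and low bees were then compared for all other genes, with the elevational belt in the model. Because the same libraries gave the score, a p-value here says only how closely a gene follows the 4 transcripts, and it is no test that the groups exist.

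The bees were foraging workers caught in the German Alps in 2019 at 16 sites, with 26 bees from 5 highland sites between 1579 and 1930 m, 25 bees from 5 mid-elevation sites between 1140 and 1423 m and 30 bees from 6 lowland sites between 641 and 987 m. The study asked how elevation and land use are reflected in gene expression, and no bee received a treatment. Each library held poly-A RNA of 1 thorax and abdomen from which, according to the labels, the gut had been dissected in the field. Which tissue the transcripts of the score came from was not tested. Age and colony of the bees were not known, and 2 bees of 1 site may be sisters, so that p-values measure the spread between bees of unknown kinship.

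In insects the midgut secretes a peritrophic matrix, a sheath of chitin and of chitin-binding proteins such as peritrophins, which encloses the food. Chymotrypsins are serine proteases that are released into the space inside it, where they split food proteins, and the cells of the midgut wall take up the sugars and amino acids that are set free. Scattered hormone-producing cells of the same wall release peptides that act on feeding and gut movement.

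The 4 transcripts were either abundant or nearly missing. All values below are CPM scaled by the trimmed mean of M-values (TMM), and for each group the lowest bee, the median and the highest bee are given. LOC100643150, the most abundant of the peritrophins, had 1247, 11728 and 29993 CPM in high bees, against 0.0661, 0.904 and 106 CPM in low bees. LOC100642915 had 513, 7010 and 20326 CPM in high bees, against 0, 0.275 and 59.2 CPM in low bees. LOC100642795 had 237, 4634 and 12337 CPM in high bees, against 0, 0.309 and 44.8 CPM in low bees. The 2 groups did not overlap in any of the 3 peritrophins. Chymotrypsin-1, LOC100648122, had 6.22, 7604 and 20687 CPM in high bees, against 0, 0.374 and 103 CPM in low bees, and for this gene the groups did overlap. Together the 4 genes took 0.337%, 3.11% and 6.62% of the counts of a library in high bees, against 1.2e-05%, 0.000271% and 0.0291% in low bees. These levels chose the groups and are given as a description.

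**Figure D1:**
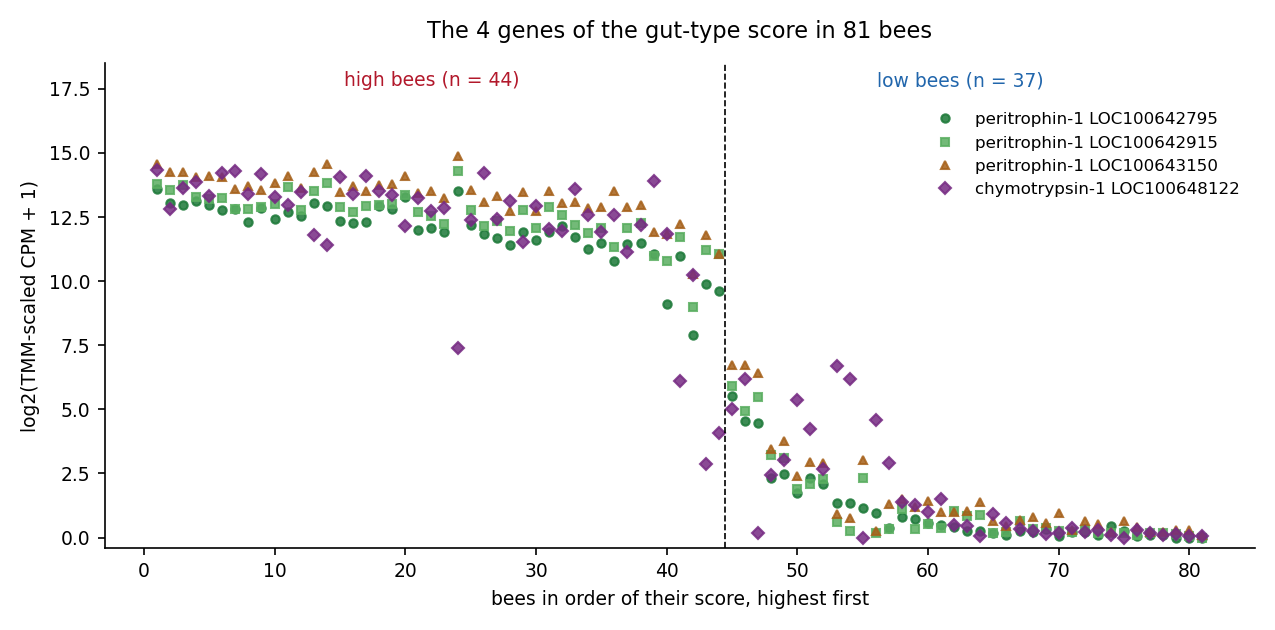
Level of the 4 genes of the score in each bee, as log2(TMM-scaled CPM + 1) on the vertical axis, with bees ordered by score along the horizontal axis and the dashed line between the 44 high and the 37 low bees. The 3 peritrophins drop together at the line, while a few chymotrypsin-1 points lie far below the peritrophins in high bees or far above them in low bees.

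The scores ran between 1.29 and 6.16 in high bees and between -7.34 and -1.32 in low bees. The gap of 2.61 around 0 was the widest between neighbouring scores, and the next widest was 1.32. Just inside the threshold lay bee 5 of site H2 with a score of 1.29 and bee 4 of site H5 with 1.43, and just outside it lay bee 2 and bee 5 of site Wma3 with -1.32 and -1.76. Grouping by the peritrophins alone gave the same groups, and grouping by chymotrypsin-1 alone moved 3 bees. These bees were among those in which the 4 genes parted. Bee 4 of H5 had 951 to 3572 CPM of the 3 peritrophins but 6.22 CPM of chymotrypsin-1, bee 5 of H2 had 782 to 2155 against 16.1 CPM, and bee 5 of Wmb1 had 2019 to 4769 against 67.6 CPM. Bee 9 of H6 had the highest LOC100643150 and LOC100642915 of all bees, 29993 and 20326 CPM, with 169 CPM of chymotrypsin-1. The reverse was seen in low bees, where bees 1 and 5 of site Wmb4 had 103 and 71.9 CPM of chymotrypsin-1 beside at most 1.53 CPM of any peritrophin. Across the 44 high bees log2(CPM + 1) of LOC100642915 and LOC100643150 had a Pearson r of 0.95 and a Spearman rho of 0.95, and the 3 peritrophins had an r between 0.34 and 0.49 and a rho between 0.32 and 0.42 with chymotrypsin-1, as a description over libraries that share depth and batch. The 3 peritrophin genes lie within 10054 bases of 1 contig of the Bombus terrestris assembly used by the authors, on 1 strand, and chymotrypsin-1 lies on another contig. Reads that fitted several genes had been divided among them, so that levels of the 3 alike-named neighbours are less certain singly than together.

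Score and group were spread over all belts. High bees made up 18 of 26 highland bees (69.2%), 14 of 25 mid-elevation bees (56.0%) and 12 of 30 lowland bees (40%). By site, the share of high bees averaged 63.8% ± 20.4 (SD, n = 5 sites) in the highlands, 56.0% ± 29.7 (n = 5) at mid-elevation and 40% ± 28.3 (n = 6) in the lowlands. None of the 3 belt pairs passed a two-sided exact permutation test over sites. Highland exceeded lowland by 23.8 percentage points (exact p = 0.182, adjusted p = 0.545), highland exceeded mid-elevation by 7.78 points (exact p = 0.706, adjusted p = 0.706) and mid-elevation exceeded lowland by 16.0 points (exact p = 0.498, adjusted p = 0.706). Fisher's exact test over bees gave p = 0.0975 for the 3 belts, and 0.0449 where chymotrypsin-1 alone set the groups, but this test takes bees of 1 site as independent. Sites of 1 belt differed widely, since all 5 bees of Wma2 and none of the 5 bees of T5 were high.

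**Figure D2:**
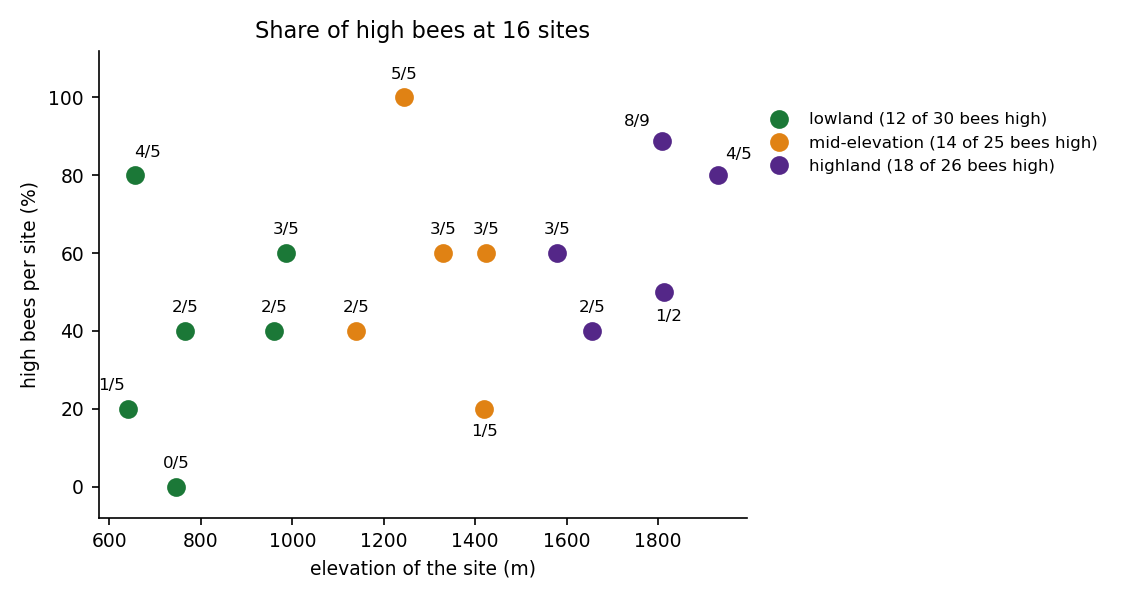
Share of high bees at each of the 16 sites (vertical axis, %) against the elevation of the site (horizontal axis, m), coloured by belt and labelled with high bees over all bees. Highland sites lie between 40% and 88.9%, mid-elevation sites between 20% and 100% and lowland sites between 0% and 80%.

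A broad programme of other genes went with the 4 transcripts. Of 9571 genes that passed the filter on low counts, 888 were higher in high bees (9.28%) and 386 were lower (4.03%) in the quasi-likelihood test of edgeR. A gene was called where its adjusted p (Benjamini-Hochberg) lay under 0.05 and its log2 fold change was 0.5 or more in either direction. The 2 directions differed in size. Among the higher genes 259 differed at least 4-fold (log2 fold change of 2) and 138 at least 16-fold (log2 fold change of 4), with a median log2 fold change of 1.19, whereas the lower genes had a median of -0.71 and only 1 of them differed 4-fold. That gene was pancreatic lipase-related protein 2, LOC100645916, at -2.27. A single bee held 39.4% of its summed level, and its log2 fold change was 4.33 in the highlands. Only 406 of the higher and 115 of the lower genes carry a product name in the sources used here. Within belts, 803 of the 888 higher genes and 331 of the 386 lower genes had the same sign in all 3 belts fitted alone, and 455 and 13 of them passed the thresholds in each belt. Scaled by library totals alone, the split was 711 higher and 858 lower genes, and the median of all genes shifted by -0.15 on the log2 scale. All 386 lower genes and 711 of the 888 higher genes were also called there.

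**Figure D3:**
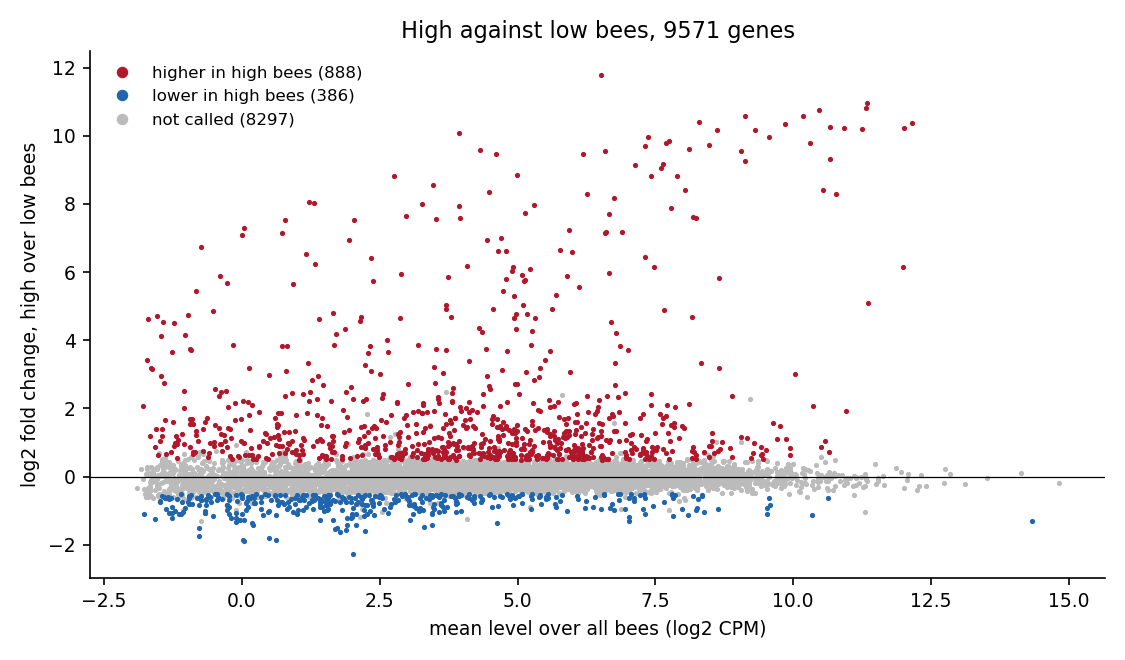
Log2 fold change of high over low bees (vertical axis) against mean level over all bees (log2 CPM, horizontal axis) for the 9571 genes tested, with the 888 genes higher in high bees, the 386 lower and the others in separate colours. Higher genes reach a log2 fold change of 11.8 and include several of the most abundant genes, while nearly all lower genes lie between -2 and -0.5.

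The genes that were at least 4-fold higher also showed that not every high bee was alike. These 259 genes, which exclude the 4 of the score, took 0.202%, 8.90% and 19.8% of a library in high bees, against 0.189%, 0.250% and 0.461% in low bees. The 259 were chosen by this same contrast, so that their difference between the groups is a description only. In 38 of the 44 high bees at most 10 of the 259 lay more than 10-fold under the median of high bees. In 4 high bees at least 50 did, with 164 in bee 5 of H2, 157 in bee 4 of H5, 117 in bee 5 of Wmb1 and 95 in bee 9 of H6, while low bees had between 128 and 186. Bee 5 of H2 and bee 4 of H5 thus lay within the range of low bees in these genes, and all 4 are bees with little chymotrypsin-1 beside their peritrophins. Bee 3 of Wmb2 fell just short of them with 49 such genes, and its share of 1.25% lay below the 1.36% of bee 9 of H6. It had 1194 CPM of chymotrypsin-1 beside 237 to 1247 CPM of the peritrophins. Without the 4 bees with at least 50 such genes, a choice made after their values were seen, 881 genes were higher and 845 were lower.

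In 6 of the 9571 genes (0.0627%) every high bee lay above every low bee, and no gene showed the reverse. One was tenascin, LOC100644199, named for a glycoprotein of the extracellular matrix. It had 5.36, 100 and 183 CPM in high bees, against 1.06, 2.21 and 4.38 CPM in low bees, a log2 fold change of 5.32 with a standard error of 0.20 (adjusted p = 2.05e-38). LOC100649426, which has no name here, had 120, 3471 and 7382 CPM in high bees, against 0, 0.18 and 31.1 CPM in low bees (10.24 ± 0.68 on the log2 scale, adjusted p = 2.79e-23). LOC100647339, also without a name, had 23.7, 1168 and 2708 CPM in high bees, against 0, 0.251 and 10.4 CPM in low bees (10.18 ± 0.54, adjusted p = 8.91e-29). Both unnamed genes were thus almost silent in low bees, and they separated the groups as fully as the peritrophins did. The other 3 were LOC100643278, LOC100645408 and LOC100644556, with log2 fold changes of 10.07, 6.94 and 3.84. Of the 10 genes with the smallest p, the remaining 7 beside tenascin, LOC100643278 and LOC100645408 had log2 fold changes between 5.93 and 7.96.

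Other peritrophins and chymotrypsins did not follow as a family. The 4th peritrophin-1, LOC100651311, did not pass the filter, and no bee had more than 5 counts of it. The chymotrypsin-2 gene LOC100649610 had 0.0958, 0.379 and 1.23 CPM in high bees, against 0.0721, 0.350 and 0.9 CPM in low bees (log2 fold change of 0.39 ± 0.17, adjusted p = 0.0681). The second chymotrypsin-2, LOC105665786, had medians of 4.02 CPM in high bees and 3.34 CPM in low bees (0.45 ± 0.46, adjusted p = 0.479). Chymotrypsin-1-like LOC100648235, which lies 8964 bases from chymotrypsin-1, had medians of 0.456 CPM in high bees and 0.527 CPM in low bees (-0.35 ± 0.38, adjusted p = 0.523). The groups overlapped almost fully in each of these genes. Of a pair of neighbouring genes named chymotrypsin inhibitor, 5896 bases apart, only 1 was called. LOC100644982 had 32.1, 539 and 1114 CPM in high bees, against 4.37, 24.7 and 328 CPM in low bees (3.33 ± 0.33, adjusted p = 1.12e-14), with 33 of 44 high bees above the highest low bee. LOC100645263 had medians of 800 CPM in high bees and 851 CPM in low bees (0.09 ± 0.20, adjusted p = 0.774).

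Among the lists of genes picked by product name, peptide hormones and a list of only 2 transcription factors stood at the top. The median log2 fold change over all 9571 genes was -0.01, and each list is described by its counts and its median beside this value and beside the 9.28% of all genes that were higher and the 4.03% that were lower. GATA-6, LOC100650330, belongs to a family of factors that specify the midgut in flies. It had 7.39, 98.9 and 166 CPM in high bees, against 0.549, 2.67 and 11.3 CPM in low bees (log2 fold change of 4.91 ± 0.24, adjusted p = 1.48e-30), with 42 of 44 high bees above the highest low bee. The fork head factor crocodile, LOC100648711, was the other member of its list, which it entered by name alone, and was also called. It had medians of 2.36 CPM in high bees and 0.859 CPM in low bees (1.31 ± 0.17, adjusted p = 1.1e-09). The median of these 2 genes was 3.11. The homeobox factor Nkx-2.2a, LOC100648138, which was in no list and was chosen after its value was seen, had medians of 54.2 CPM in high bees and 1.06 CPM in low bees (5.76 ± 0.30, adjusted p = 1.08e-29).

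Of 10 genes for neuropeptides, gut hormones and their receptors 9 were tested, 7 were higher and none was lower, with a median log2 fold change of 2.17. Short neuropeptide F, LOC100643034, a peptide that acts on feeding in insects, had 0.739, 13.7 and 27.0 CPM in high bees, against 0, 0.186 and 0.750 CPM in low bees (5.93 ± 0.25, adjusted p = 1.03e-34). Only 1 high bee fell below the highest low bee. Orcokinin peptides, LOC105666199, had 4.15, 16.1 and 58.9 CPM in high bees, against 0.314, 0.945 and 4.63 CPM in low bees (3.74 ± 0.23, adjusted p = 1.83e-25). The diuretic hormone receptor LOC100647840 had 3.88, 27.7 and 77.7 CPM in high bees, against 1.56, 2.85 and 4.75 CPM in low bees (3.39 ± 0.18, adjusted p = 4.56e-29). In these 3 genes the overlap was confined to between 1 and 2 high bees.

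Digestive enzymes were split between a few large differences and many members that were not called. Maltase 1, LOC100643731, which splits maltose and sucrose, had 59.1, 6729 and 21094 CPM in high bees, against 21.1, 82.5 and 330 CPM in low bees (log2 fold change of 6.14 ± 0.35, adjusted p = 3.38e-27). It was among the most abundant of the higher genes, and 40 of 44 high bees lay above the highest low bee. Trehalase, LOC100646078, the enzyme for the blood sugar of insects, had 108, 1075 and 7415 CPM in high bees, against 90.3, 210 and 384 CPM in low bees (3.02 ± 0.29, adjusted p = 2.75e-15). Glucosylceramidase, LOC100643512, was lower, with medians of 234 CPM in high bees and 319 CPM in low bees (-0.56 ± 0.13, adjusted p = 0.000468). These were the called members of 5 sugar-splitting enzymes, whose median was -0.02.

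Of 12 exopeptidases, which trim amino acids from the ends of peptides, 11 were tested and 6 were higher, with a median of 0.78. The zinc carboxypeptidase LOC100649831 had 28.1, 3820 and 16666 CPM in high bees, against 17.4, 83.1 and 644 CPM in low bees (5.08 ± 0.40, adjusted p = 3.93e-19). Carboxypeptidase Q, LOC100644864, had medians of 134 CPM in high bees and 27.1 CPM in low bees (2.37 ± 0.19, adjusted p = 2.93e-19). The trypsins stayed at low levels. Of the 7 digestive endopeptidases of the list 1 is chymotrypsin-1 itself, and of the 6 others 2 were higher and 1 was lower. Trypsin 3A1-like LOC100651109 had medians of 0.478 CPM in high bees and 0 CPM in low bees (4.54 ± 0.35, adjusted p = 1.96e-19). Trypsin 3A1 LOC100644527 was called lower (-1.58 ± 0.41, adjusted p = 0.00176), but its medians were 1.01 CPM in high bees and 0.745 CPM in low bees, and 1 low bee with 187 CPM held 63.7% of its summed level. Lipase 3, LOC100647241, had medians of 21.1 CPM in high bees and 0.692 CPM in low bees (6.03 ± 0.50, adjusted p = 3.29e-18). It was 1 of 2 lipases that were higher among the 14 tested, with 1 lower and a median of -0.10. The lower one was pancreatic lipase-related protein 2.

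**Figure D4:**
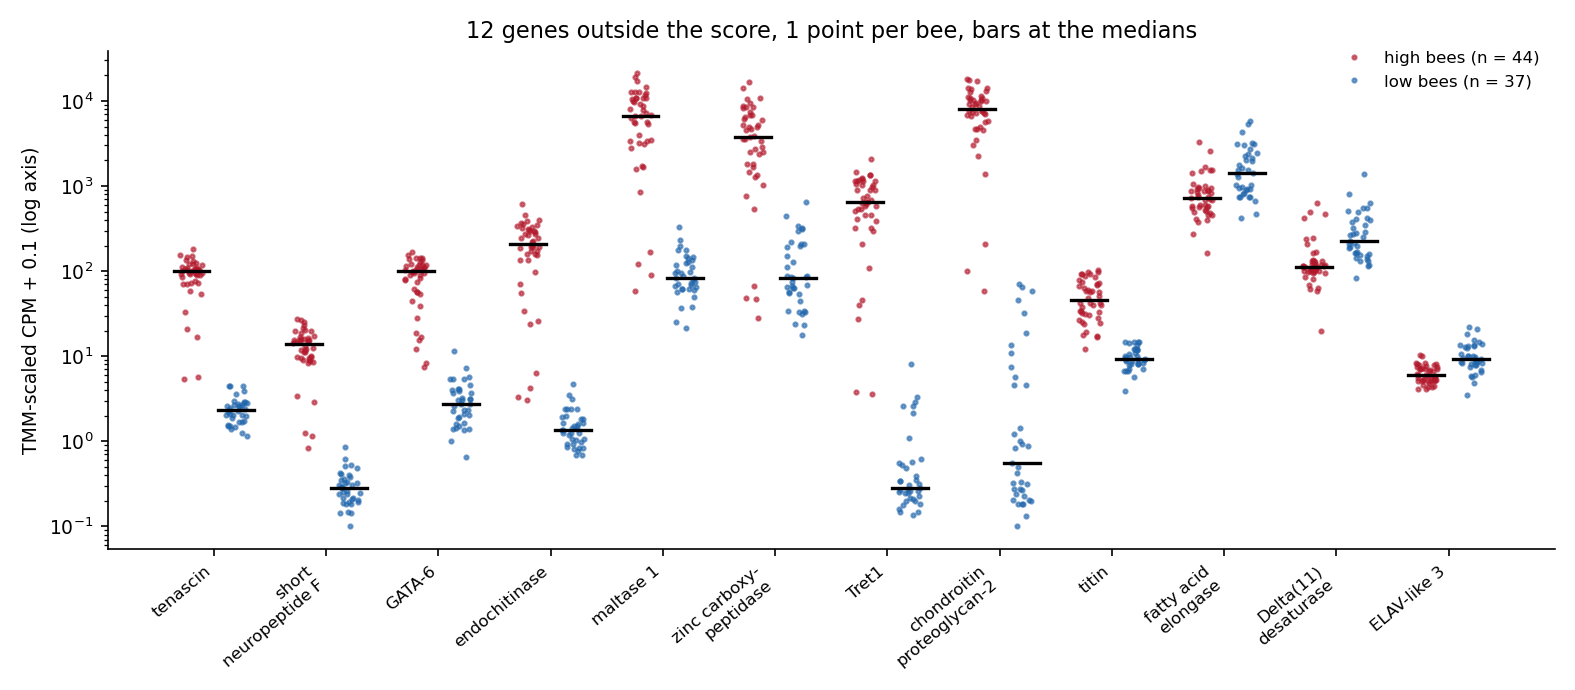
TMM-scaled CPM + 0.1 (vertical log axis) of 12 genes outside the score, with 1 point per bee, high bees left of low bees and bars at the medians. Tenascin separates the groups fully, genes from short neuropeptide F to titin separate them except for a few high bees near or within the range of low bees, and the fatty acid elongase, the Delta(11) desaturase and ELAV-like 3 are lower in high bees with wide overlap.

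Sugar and amino acid transporters, picked by name and not by tissue, were called in 1 direction only in the fit reported here. Of 14 sugar and amino acid transporters all were tested, 9 were higher, 5 were not called and none was lower, with log2 fold changes of -0.49 or more and a median of 0.86. Scaled by library totals alone, 9 were higher and 2 were lower. The trehalose transporter Tret1 LOC100647285 had 3.47, 651 and 2067 CPM in high bees, against 0.0372, 0.183 and 7.99 CPM in low bees (10.17 ± 0.53, adjusted p = 1.67e-29), and 42 of 44 high bees lay above the highest low bee. The amino acid transporter b(0,+)-type 1, LOC100649093, had medians of 13.5 CPM in high bees and 3.59 CPM in low bees (1.87 ± 0.17, adjusted p = 5.15e-16). Both subunits of the V-type proton ATPase in its list, the pump that energises epithelia such as the midgut wall, were higher by less. Its 16 kDa proteolipid subunit LOC100646343 had 792, 1175 and 2251 CPM in high bees, against 478, 711 and 914 CPM in low bees (0.83 ± 0.07, adjusted p = 6.87e-17). Protein snakeskin, LOC100645608, a component of the septate junctions that seal the insect midgut, had 9.18, 193 and 347 CPM in high bees, against 1.90, 6.35 and 33.5 CPM in low bees (4.53 ± 0.25, adjusted p = 7.33e-28), and was chosen after its value was seen.

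Genes named for the peritrophic matrix, chitin or mucins, again picked by name and not by tissue, were less uniform. Of 14 genes for the peritrophic matrix and chitin, 3 are those of the score, 1 did not pass the filter, and 3 of the 10 tested were higher, with a median of 0.42. Endochitinase, LOC100645662, which degrades chitin, had 2.94, 209 and 611 CPM in high bees, against 0.589, 1.26 and 4.6 CPM in low bees (7.19 ± 0.34, adjusted p = 1.34e-31). Mucin-5AC LOC100650591 and mucin-3B-like LOC100647739 were also higher, by 1.38 ± 0.14 and 2.52 ± 0.31 on the log2 scale, though no bee exceeded 9.23 CPM in either. The most abundant of all genes 16-fold higher was chondroitin proteoglycan-2, LOC100642676, with 58.1, 8113 and 17898 CPM in high bees, against 0, 0.460 and 70.9 CPM in low bees (10.38 ± 0.73, adjusted p = 1.16e-21). It was followed by maltase 1 and by LOC105665627, which has no name here and had 5.30, 5983 and 23041 CPM in high bees, against 0, 0.388 and 153 CPM in low bees (10.23 ± 0.83, adjusted p = 1.86e-18). Both genes were chosen after their values were seen. The largest log2 fold change, 11.79 ± 0.74, was that of the unnamed LOC100643115, whose medians were 24.8 CPM in high bees and 0 CPM in low bees, and in which 1 high bee held 24.6% of the summed level.

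Of 18 genes for detoxification 8 were higher and 2 were lower, with a median of 0.43. Cytochrome P450 6k1 LOC105666343, of a family that oxidises plant compounds and pesticides in bees, had 1.17, 546 and 3592 CPM in high bees, against 1.6, 5.42 and 287 CPM in low bees (5.82 ± 0.47, adjusted p = 1.1e-18). In 37 of 44 high bees it lay above the highest low bee. The 2 lower members, P450 306a1 LOC100650054 and P450 315a1 LOC100644009, are known in insects as enzymes of ecdysteroid synthesis and not of detoxification, and had log2 fold changes of -0.53 ± 0.16 (adjusted p = 0.00905) and -1.0 ± 0.33 (adjusted p = 0.0132). Of 4 genes of innate immunity 1 was called. The peptidoglycan recognition protein LOC100651417, a sensor of bacterial walls, had 13.1, 346 and 904 CPM in high bees, against 9.36, 34.6 and 391 CPM in low bees (2.04 ± 0.33, adjusted p = 4.54e-07), with 16 of 44 high bees above the highest low bee.

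**Figure D5:**
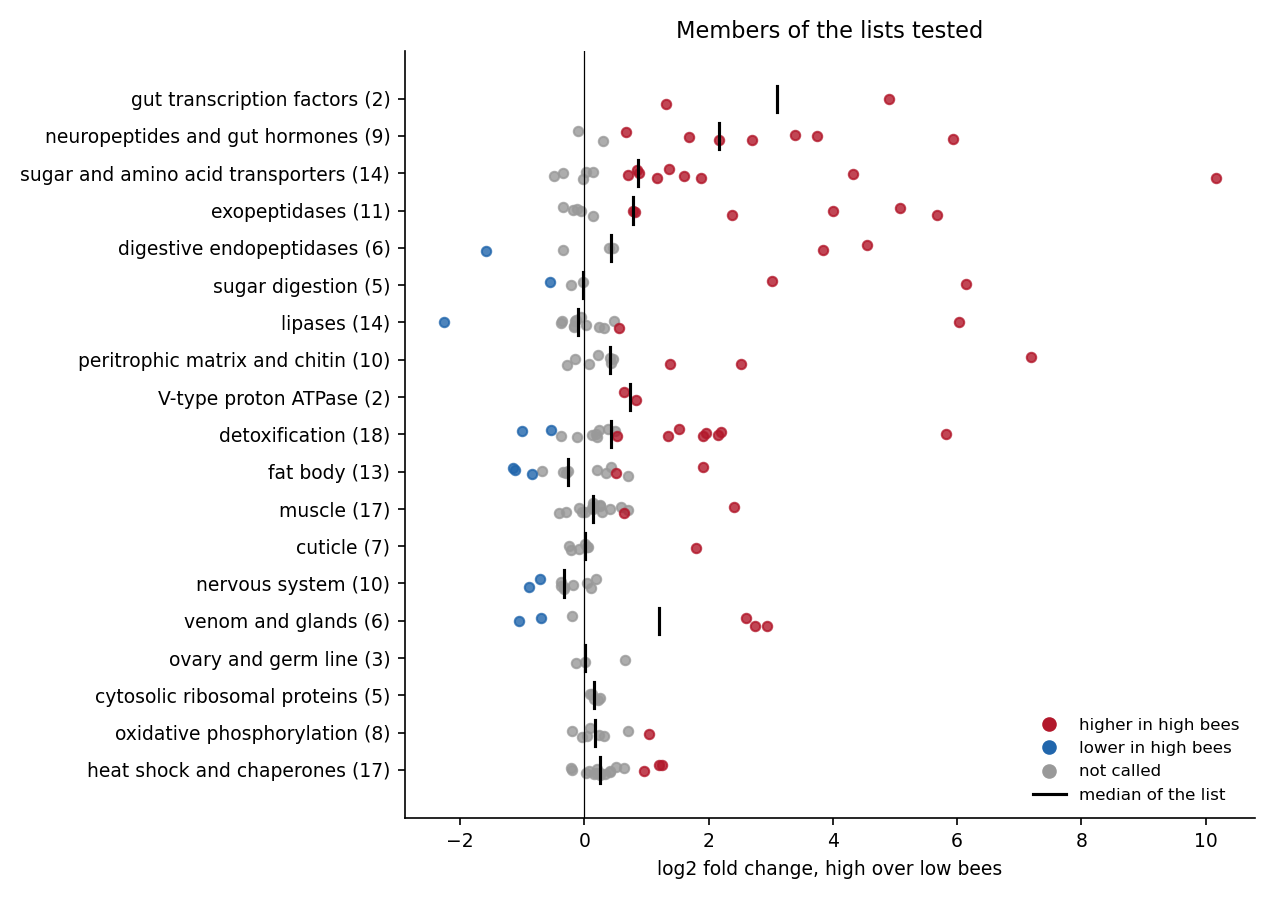
Log2 fold change of high over low bees (horizontal axis) of each tested member of 19 lists picked by product name, with the number of members tested in brackets and a bar at the median of each list. Neuropeptides, transporters and exopeptidases have medians of 2.17, 0.86 and 0.78, and the 2 genes listed as gut transcription factors have 3.11. Venom and gland genes have a median of 1.20, and the lists for ribosomal proteins, muscle and cuticle have medians of 0.16, 0.14 and 0.01.

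Lists for the labelled tissues varied. Muscle, cuticle and ovary or germ line had median log2 fold changes of 0.14, 0.01 and 0.02. Fat body and nervous system had -0.26 and -0.32, and venom and gland genes had 1.20. Some digestive lists had small medians too, with -0.10 for lipases and -0.02 for sugar-splitting enzymes. Of 17 muscle genes 2 were higher and none was lower, with a median of 0.14, and the troponins, tropomyosins and twitchin of flight and body muscle were not called. The summed level of the 17 genes was 2377, 4610 and 45645 CPM in high bees and 2833, 4939 and 22117 CPM in low bees. The muscle genes depended on a few bees, since 6 of 16 tested were lower, with a median of -0.51, without the 4 high bees that stood apart, and 9 of 16 were lower, with a median of -0.73, where chymotrypsin-1 alone set the groups. The higher members were the heavy chain of non-muscle myosin, LOC100649130, with medians of 180 CPM in high bees and 119 CPM in low bees (0.64, adjusted p = 7.87e-06), and 1 of the titins, LOC100643023, with medians of 45.2 CPM in high bees and 9.29 CPM in low bees (2.41 ± 0.16, adjusted p = 7.86e-24), while the titin LOC105665841 had a log2 fold change of 0.00. No cytosolic ribosomal protein among 5, no gene of the secretory entry pathway among 5 and no ovary or germ line gene among 3 was called. Of 17 heat shock genes and chaperones 3 were higher, all named lethal(2)essential for life, and of 8 genes of oxidative phosphorylation 1 was higher and of 5 of the TCA cycle 1 was lower. Of 6 venom and gland genes 3 were higher and 2 lower, with log2 fold changes between -1.05 and 2.94 and a median of 1.20. Under the alternatives this median lay between -0.37 and 1.27. In a bulk sample, more cells of a kind and more RNA per cell cannot be told apart, and whether remains of the gut were in the libraries of high bees was not tested.

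Genes lower in high bees included some of the fat body list and some of the nervous system list. Of 13 fat body genes 3 were lower and 2 were higher, with a median of -0.26. The higher ones were the sphingolipid desaturase DES1 and an elongase named protein 4, and vitellogenin, hexamerin and the fatty acid synthase were not called. The elongase of very long chain fatty acids LOC100643858 had 162, 727 and 3325 CPM in high bees, against 425, 1424 and 5871 CPM in low bees (-1.12 ± 0.21, adjusted p = 7.64e-06). Acyl-CoA Delta(11) desaturase LOC100650033 had 19.5, 113 and 639 CPM in high bees, against 81.9, 225 and 1392 CPM in low bees (-1.15 ± 0.22, adjusted p = 1.39e-05). Enzymes of this kind make the long chains from which insect surface lipids derive. A related set, chosen after its values were seen, held 7 fatty acyl-CoA and 3-oxoacyl-CoA reductases, of which 5 were lower and 1 was higher, with log2 fold changes between -1.31 and 1.17. Fatty acyl-CoA reductase wat LOC100648580 had medians of 319 CPM in high bees and 649 CPM in low bees (-1.10 ± 0.29, adjusted p = 0.00186), and the very-long-chain 3-oxoacyl-CoA reductase LOC100642272 had 497 CPM in high bees and 899 CPM in low bees (-0.85 ± 0.19, adjusted p = 0.000235). The groups overlapped in every one of these genes.

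Of 11 nervous system genes 10 were tested, 2 were lower and none was higher, with a median of -0.32. Without the 4 high bees that stood apart 8 of the 10 were lower, with a median of -0.70, and 7 were lower where chymotrypsin-1 alone set the groups, with a median of -0.84. ELAV-like protein 3, LOC100649079, of a family of RNA-binding proteins of neurons, had 3.98, 5.86 and 10.2 CPM in high bees, against 3.43, 9.12 and 22.1 CPM in low bees (-0.71 ± 0.11, adjusted p = 1e-07). The glutamate receptor U1 LOC100643744 had medians of 15.0 CPM in high bees and 25.9 CPM in low bees (-0.89 ± 0.22, adjusted p = 0.00069). The smallest p of all lower genes belonged to LOC100642683, which has no name here and had 3.70, 11.1 and 18.2 CPM in high bees, against 9.02, 16.7 and 44.5 CPM in low bees (-0.80 ± 0.11, adjusted p = 4.15e-09). The 8 lower genes with the smallest p had log2 fold changes between -1.0 and -0.52. The most abundant lower gene was the unnamed LOC100652170, chosen after its value was seen, with 300, 9799 and 53451 CPM in high bees, against 5876, 22571 and 126732 CPM in low bees (-1.31 ± 0.25, adjusted p = 1.91e-05).

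Pathway lists that the study had drawn up from these same bees were also read, so that their direction is not independent evidence. Of 50 listed lysosome genes 23 were higher and none was lower, with a median of 0.46. The Niemann-Pick type protein 1B LOC100647503, a member of a family of sterol carriers, had 3.20, 55.8 and 110 CPM in high bees, against 0.916, 2.05 and 3.76 CPM in low bees (4.78 ± 0.22, adjusted p = 2.41e-32), and 43 of 44 high bees lay above the highest low bee. Sialin, LOC100649479, a lysosomal transporter, had medians of 52.9 CPM in high bees and 2.24 CPM in low bees (4.27 ± 0.35, adjusted p = 2.93e-18). Of 13 genes of sphingolipid metabolism 10 were higher, with a median of 0.65, of 19 of glutathione metabolism 8 were higher, with a median of 0.42, and of 36 of amino sugar metabolism 35 were tested and 15 were higher, with a median of 0.40. None of these 3 lists had a lower gene. By contrast, none of 33 genes of aminoacyl-tRNA biosynthesis, 31 of ribosome biogenesis or 29 of N-glycan biosynthesis was called in either direction. Of 30 genes of oxidative phosphorylation 1 was called, of 23 of glycolysis 1, and of 26 of the TCA cycle 2. The count for oxidative phosphorylation rested on the bees used, since 19 of the 30 genes were higher without site H4, with a median of 0.58, and 18 were higher in lowland bees alone, with a median of 0.76.

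The size of the difference varied with belt in 23 genes (0.24% of 9571), and 873 genes had an unadjusted p under 0.05 in this test of edgeR. In 17 of the 23 the log2 fold change was above 5 in every belt, and in all 17 the low bees of the lowlands had the lowest median of the low bees, at most 1.17 CPM. In LOC105665627 the medians of high bees were 5837, 7290 and 7188 CPM in highland, mid-elevation and lowland sites, against 2.89, 4.19 and 0.170 CPM in low bees of the same belts. Chondroitin proteoglycan-2 LOC100642676 had medians of 8259, 8388 and 7860 CPM in high bees of the highlands, mid-elevation and lowlands, against 2.7, 5.66 and 0.175 CPM in low bees. In both genes the medians of high bees lay close together across belts, and those of low bees were lowest in the lowlands. The score of low bees had the same order, with medians of -5.94 in the highlands, -5.81 at mid-elevation and -7.06 in the lowlands. Genes that follow the score can thus vary with belt in this way, and a belt difference apart from the score was not tested.

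The comparisons between belts, the study's own question, were then set beside the same comparisons with the high-low group in the model, without the 4 genes of the score. Highland against lowland bees gave 65 called genes (0.686% of 9471) with belt alone, 17 higher and 48 lower, and 31 genes (0.324% of 9571) with the group in the model, 19 higher and 12 lower. The 20 genes that both fits called were 30.8% of the first list and 64.5% of the second. Highland against mid-elevation bees gave 20 genes (0.211%) with belt alone and 21 (0.219%) with the group, of which 17 were shared. Mid-elevation against lowland bees gave 35 genes (0.37%) with belt alone and 46 (0.481%) with the group, of which 31 were shared. With the score itself in place of the group, the counts were 52 genes for highland against lowland, 23 for highland against mid-elevation and 57 for mid-elevation against lowland. The fits with and without the group tested slightly different sets of genes, because the filter on low counts depends on the model.

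Some measures of the libraries moved with the groups. Total counts per bee were between 15700759 and 33784279, with means of 26073125 ± 4089463 in high bees and 25111810 ± 3228570 in low bees (SD, n = 44 and 37), a difference that did not pass a two-sided permutation test with 100000 resamples (adjusted p = 0.252). The number of genes with at least 10 counts was 9245 ± 117 in high bees and 9208 ± 116 in low bees (permutation test, adjusted p = 0.206). The 100 most abundant genes took 33.6% ± 2.80 of the counts in high bees and 30.9% ± 3.65 in low bees (permutation test, adjusted p = 0.00072). The 4 genes of the score were not left out of this ranking. They alone took a median of 3.11% of the counts in high bees and 0.000271% in low bees, so that this p-value is no test independent of the score. The regression of log2 CPM on the log2 of the exon length has a slope that falls where long transcripts are under-represented. This slope was 0.0991 ± 0.0922 in high bees and 0.212 ± 0.0660 in low bees (permutation test, adjusted p = 8e-05). The genes of the score and the called genes were part of this regression, so that its p-value is no test independent of the score either. Over 7838 genes that were not called and had a mean of at least 1 CPM the slope was 0.156 ± 0.0911 in high bees and 0.222 ± 0.0653 in low bees (permutation test, p = 0.00042), and within single belts this difference had p between 0.0551 and 0.0618. These genes were picked by the outcome of the same contrast, so that this slope is a description too. Higher genes had a median exon length of 2369 bases, lower genes of 3415 bases and all tested genes of 2436 bases. The RNA integrity number lay between 2.7 and 9.0 over all samples according to the labels. Values for each bee were not used here, and the part of RNA integrity in these differences was not tested.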

How the data were processed

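Poly-A RNA of thorax and abdomen of 81 bees had been sequenced as 1 stranded library per bee. According to the methods and the submitters' notes, the authors trimmed reads with cutadapt 2.5, aligned them with STAR 2.7.2b to the Bombus terrestris assembly and counted them with featureCounts 1.6.4. The deposited values are estimated counts per gene, not normalized, and 28.5% are not whole, because the authors divided reads that fitted several places. The table lists 10581 genes, and totals per bee have a median of 26082949.

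Counts were rounded to whole numbers, filtered with filterByExpr by belt and group, scaled with TMM and tested in edgeR 4.0.16 (R 4.3.3) with belt as a covariate. The 4 genes of the score were left out of every fit. Each standard error was obtained from the F statistic, as the fold change on the log2 scale over its root. The fit was tested on simulated data. Shares and library measures were tested with scipy 1.17.1. The members, the gene lists and the tests were chosen with earlier results of these data known. Named genes are the 10 higher and 8 lower genes with the smallest p, all other peritrophins and chymotrypsins, and of each list up to 3 called genes a direction, with exceptions marked; many of the list genes are given only in counts. Lists were made from product names, which 1777 genes have in the table or the study's supplements, so that they are not complete. Pathway lists are unions of the genes that the study named as drivers of enrichment; 40 held at least 10 genes, and those not mentioned are not reported. Alternatives were other scalings, DESeq2 1.42.0, limma 3.58.1 with site as a random block (correlation of 0.084), site as a covariate, other groupings, single belts and sites left out. Grazing and sampling temperature are not in the labels and were not used. Sequences were not used here, and coordinates are not given because contigs carry accessions only.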

Additional observations from a re-analysis of the deposited data

Results flagged for a closer look

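The difference between high and low bees varied with belt in 23 genes in the interaction test of edgeR, and these genes were looked at again because the difference itself was tested between belts. All 23 were also called with the size factors of DESeq2. The smallest adjusted p belonged to LOC105665627 (adjusted p = 0.000138), with log2 fold changes of 7.94 in the highlands, 8.84 at mid-elevation and 14.84 in the lowlands. LOC100643349 (adjusted p = 0.000263) had 9.73, 8.47 and 14.58 in the same order, LOC100646106 (adjusted p = 0.00109) had 8.25, 8.01 and 13.55, and chondroitin proteoglycan-2 LOC100642676 (adjusted p = 0.0168) had 8.90, 8.89 and 13.25. In these 4 genes the lowland value rests on low bees whose medians lay between 0.0457 and 0.175 CPM. The score of low bees was also lowest in the lowlands, so that these values are not separate from the score.

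LOC100651697 (adjusted p = 0.000749) had log2 fold changes of 1.06 in the highlands, 6.05 at mid-elevation and 6.46 in the lowlands, and its highest low bee, in the highlands, had 15.8 CPM against a median of 0.080 CPM there. Pancreatic lipase-related protein 2 LOC100645916 (adjusted p = 0.0145) had 4.33 in the highlands, -3.21 at mid-elevation and -3.34 in the lowlands, with 1 highland high bee at 126 CPM and medians between 0.342 and 1.22 CPM in all 6 groups. Trypsin 3A1 LOC100644527 (adjusted p = 0.0453) had -3.85 in the highlands, -0.72 at mid-elevation and -0.17 in the lowlands, and 1 highland low bee at 187 CPM. The last 2 values rest on single bees.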

How the results depend on the processing

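Without a threshold on the fold change 1704 genes were higher and 1241 lower, and at a log2 fold change of 2 these were 259 and 1. Mid-elevation bees alone gave 576 higher genes. The number of lower genes moved most, to 858 with library totals alone, 880 with groups set by chymotrypsin-1 alone, 845 without the 4 high bees that stood apart (chosen after seeing the data) and 183 in highland bees alone. Leaving out each site in turn gave 805 to 931 higher and 322 to 536 lower genes. DESeq2 gave 861 and 458, and site in place of belt as a covariate gave 835 and 258, with 960 of the 1274 calls shared. With the score as a continuous covariate, highland against lowland bees gave 52 genes and mid-elevation against lowland bees 57. The Fisher test of belts reached p = 0.0449 with chymotrypsin-1 groups. The difference in total count was -973471 in lowland bees, reversed, and 2473253 at mid-elevation (permutation test, adjusted p = 0.0312). The share of the top 100 genes, from which the genes of the score were not left out, differed by 2.49 points in the lowlands and 1.79 in the highlands (permutation test, adjusted p = 0.123 and 0.268). The length slope over genes that were not called, also added after seeing the data, kept its direction. Of the named genes, pancreatic lipase-related protein 2 LOC100645916 reversed to 4.2 and P450 315a1 LOC100644009 to 0.39 in highland bees alone, and the unnamed LOC100650867 to -0.14 at mid-elevation. Of 5373 values of 154 named genes under 35 alternatives, 5170 kept their side of the thresholds. This total includes grouping by the peritrophins alone and at the widest gap, which gave the same groups as the main fit, so that their agreement was fixed. Many of the named genes were also chosen for a small p in this same contrast.

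Bees were numbered from 1 at each site, and a replicate block on these numbers gave 887 higher and 511 lower genes. Residual correlations averaged 0.00042 between bees of the same number and -0.0145 between others, and 19 of 81 bees correlated best with their own number, so that the numbers were not taken to pair bees. Low bees rest on few counts of many of the higher genes, so that the largest fold changes are the least certain.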
